A study of Mus musculus with 12 samples.

Results

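The early B lineage genes are 10 genes that are used when a blood progenitor starts along the B cell pathway: Il7r, Ebf1, Pax5, Rag1, Rag2, Dntt, Cd79a, Cd79b, Igll1 and Vpreb1. Their open chromatin was taken as every region of the count table that overlapped the body of one of these genes extended by 20 kb on each side (GENCODE M21 basic, GRCm38). This rule found 85 of the 121336 regions and used no accessibility value. Ebf1 held 23 of them, Dntt 16, Cd79b 11, Pax5 9, Cd79a 9 and Il7r 3. Rag1 and Rag2 lie next to each other and held 6 regions each, 5 of which they shared. Igll1 and Vpreb1 held the same 7 regions, so their values are given once.

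Accessibility was measured by ATAC-seq, in which a transposase cuts open DNA, in 12 libraries of sorted mouse bone marrow cells. WT were wild type mice and URE were mice lacking both copies of the upstream regulatory element of Spi1 (labelled UREd/d), the enhancer of the gene for the ETS family transcription factor PU.1. The animals were littermates of C57BL/6 background, 8 to 12 weeks old. LSK were sorted as Lin- Sca-1+ c-Kit+ cells, a mixture of stem cells and multipotent progenitors, and GMP as Lin- Sca-1- c-Kit+ CD16/32+ cells, the granulocyte-monocyte progenitors. Each of the 4 groups, WT-LSK and WT-GMP as well as URE-LSK and URE-GMP, had 3 libraries. The lineage antibodies included Cd45r, so cells carrying this B cell protein were sorted away. The deletion is carried by every cell of the mouse and the libraries are bulk: fewer cells of a type and less open chromatin per cell cannot be told apart.

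Library totals lay between 23072701 and 62204826 counts, and values are given as CPM (counts scaled to a common library size with TMM factors, a correction for library composition). The regions 12 to 17 kb upstream of the Spi1 start codon, where the deleted element lies, summed to between 51.8 and 86.9 CPM in the WT libraries and between 4.17 and 7.16 CPM in the URE libraries, so every library matched its genotype label. Regions at 6 granulocyte genes summed to between 229 and 314 CPM in the LSK libraries, to between 878 and 1151 CPM in WT-GMP and to between 1378 and 1452 CPM in URE-GMP. Those at stem cell genes summed to between 749 and 891 CPM in LSK, to between 525 and 623 CPM in WT-GMP and to between 424 and 465 CPM in URE-GMP, although Ly6a, the gene of the sorting marker Sca-1, had no region. Of the genes of other cells, 4 erythroid genes summed to between 176 and 182 CPM in WT-LSK and between 196 and 213 CPM in URE-LSK, and to between 179.9 and 197 CPM in WT-GMP and between 198 and 209 CPM in URE-GMP, higher in URE without overlap. The 5 T cell genes summed to between 130.3 and 172 CPM in WT and between 197 and 219.6 CPM in URE, again without overlap. The 5 mature B cell genes summed to between 112 and 114 CPM in WT-LSK and between 126 and 129 CPM in URE-LSK, and to between 113 and 120.0 CPM in WT-GMP and between 118 and 124 CPM in URE-GMP, which overlapped in GMP alone, and within that list Ms4a1, which encodes CD20, had means of 4.77 CPM (WT-LSK), 0.188 CPM (URE-LSK), 9.34 CPM (WT-GMP) and 0.693 CPM (URE-GMP). The part of these other cells in the results was not tested.

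In the mouse, IL-7 signalling through its receptor and the factors EBF1 and PAX5 turn a lymphoid progenitor into a committed B cell precursor. The recombinase RAG1/RAG2 and the polymerase TdT (Dntt) assemble and diversify the immunoglobulin heavy chain gene, and the new heavy chain then pairs with the surrogate light chain (Igll1, Vpreb1) and signals through CD79A and CD79B. Multipotent progenitors can carry open chromatin at such genes before they are fully expressed, which is called lymphoid priming. The comparisons ask whether that open chromatin was lower without the PU.1 enhancer, and whether LSK and GMP differed in this.

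The early B lineage loci did not move in one direction. In URE-LSK 20 of the 85 regions (23.5%) were lower than in WT-LSK and 10 (11.8%) were higher, where lower and higher mean an adjusted p under 0.05 and more than a 2-fold difference (edgeR quasi-likelihood test, Benjamini-Hochberg adjustment over all regions). Over all 121336 regions 23.9% were lower and 13.6% higher. In URE-GMP 22 of the 85 (25.9%) were lower and 13 (15.3%) higher, beside 24.1% and 15.6% of all regions. The median log2 fold change of the 85 regions was 0.15 in LSK and 0.04 in GMP, beside 0.14 and 0.06 over all regions. These shares of the B lineage regions lay near those of open chromatin in general.

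The balance of the calls depended on the scaling. With offsets that remove a trend with GC content, 16 regions were higher and 18 lower in LSK and 17 and 18 in GMP. Over all regions the same offsets moved the LSK calls from 16501 higher and 29035 lower to 26834 and 24717, and the GMP calls from 18974 and 29185 to 26956 and 23974. The median of all regions in LSK was then 0.28, and with TMM on promoter regions it was -0.04. With offsets against abundance the B lineage regions gave 15 higher and 13 lower calls in LSK and 15 and 15 in GMP. Over all regions those offsets gave 26330 higher and 22492 lower calls in LSK and 26517 and 20698 in GMP. In LSK 12 of the 20 lower and 8 of the 10 higher regions, and in GMP 14 of the 22 lower and 10 of the 13 higher regions, were also called under every other scaling, by DESeq2 and with replicate numbers fitted as a block.

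The calls were spread unevenly over the genes, without a test of one gene against another. In URE-LSK all 3 regions of Il7r were lower, and so were 5 of 11 of Cd79b, 3 of 9 of Pax5, 3 of 7 of Rag1 or Rag2 and 3 of 16 of Dntt, with none of these called higher. Ebf1 had 9 of 23 regions higher and 2 lower, Cd79a had 1 higher and 1 lower of 9, and Igll1 and Vpreb1 had none of 7 called. Beside the 23.9% lower and 13.6% higher of all regions, the lower share was 45.5% for Cd79b, 42.9% for Rag1 or Rag2, 33.3% for Pax5, 18.8% for Dntt and 11.1% for Cd79a, and the higher share was 39.1% for Ebf1 and 11.1% for Cd79a, so Dntt and Cd79a lay below the shares of all regions in both directions. At an unadjusted p under 0.05 in edgeR, higher regions numbered 0 for Il7r and Cd79b, 2 for Pax5, 1 for Rag1, 1 for Rag2, 3 for Dntt and 4 for Igll1 and Vpreb1. The share of all regions at that unadjusted p is not given here. DESeq2 called 1 region of Igll1 and Vpreb1 higher and 0 of the other genes in that list. In GMP 6 of 11 regions of Cd79b, 5 of 16 of Dntt, 4 of 9 of Pax5, 2 of 3 of Il7r and 2 of 7 of Rag1 or Rag2 were lower, while Ebf1 had 10 of 23 higher and 2 lower, beside 24.1% lower and 15.6% higher of all regions.

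**Figure D1:**
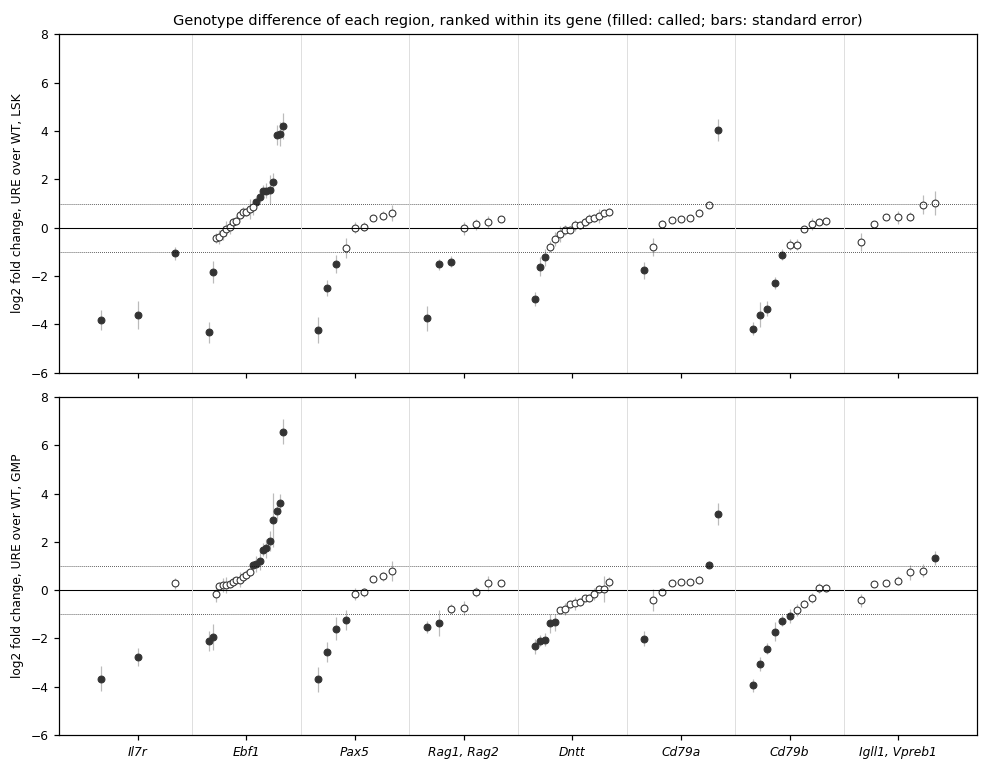
The log2 fold change of URE over WT is plotted for each region of each gene, in LSK (top) and GMP (bottom), ranked within the gene. Bars are the standard error of the fit over 3 libraries a group, filled points are called, and dotted lines mark a 2-fold difference. Il7r and Cd79b have no called region above 0, and Ebf1 reaches 4.22 in LSK and 6.56 in GMP.

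Of the 85 regions, 18 (21.2%) were lower in URE in both cell types and 8 (9.41%) were higher in both, beside 18.7% and 8.45% of all regions. Another 46 (54.1%) were called in neither, beside 50.1% of all regions, and 0 were called in opposite directions, beside 0.16%. Calls in LSK alone covered 2 lower and 2 higher regions (2.35% each, beside 5.11% and 5.06% of all), and calls in GMP alone 4 lower (4.71%, beside 5.22%) and 5 higher (5.88%, beside 7.12%). The sharing of calls was thus near that of open chromatin in general. Those splits rest on a threshold, so the difference itself was tested: the GMP effect less the LSK effect of genotype (the interaction) was called in 7 regions with a positive sign and 5 with a negative one, or 8.24% and 5.88% of 85, beside 8.96% and 5.03% of all regions.

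To see each gene as a whole, the counts of the regions in its window were summed and fitted for all 18435 protein-coding genes with such a region. In LSK the Il7r sum alone passed, and it was lower. In GMP the sums of Il7r and Cd79b passed, both lower. By edgeR and by DESeq2, 0 sums were called higher in either cell type, although 5 sums in LSK and 5 in GMP were higher at an unadjusted p under 0.05 in edgeR. Igll1 and Vpreb1, which hold the same regions, are 2 of the 5 in each. The median log2 fold change over all gene sums was 0.17 in LSK and 0.15 in GMP. The share of all genes at that unadjusted p is not given here. Over all genes 3.59% of sums were called lower and 2.25% called higher in URE-LSK, and 4.64% and 2.88% in URE-GMP. A sum is led by its strongest region, which in the Cd79a and the Igll1 and Vpreb1 windows lies at the promoter of a neighbouring gene.

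**Figure D2:**
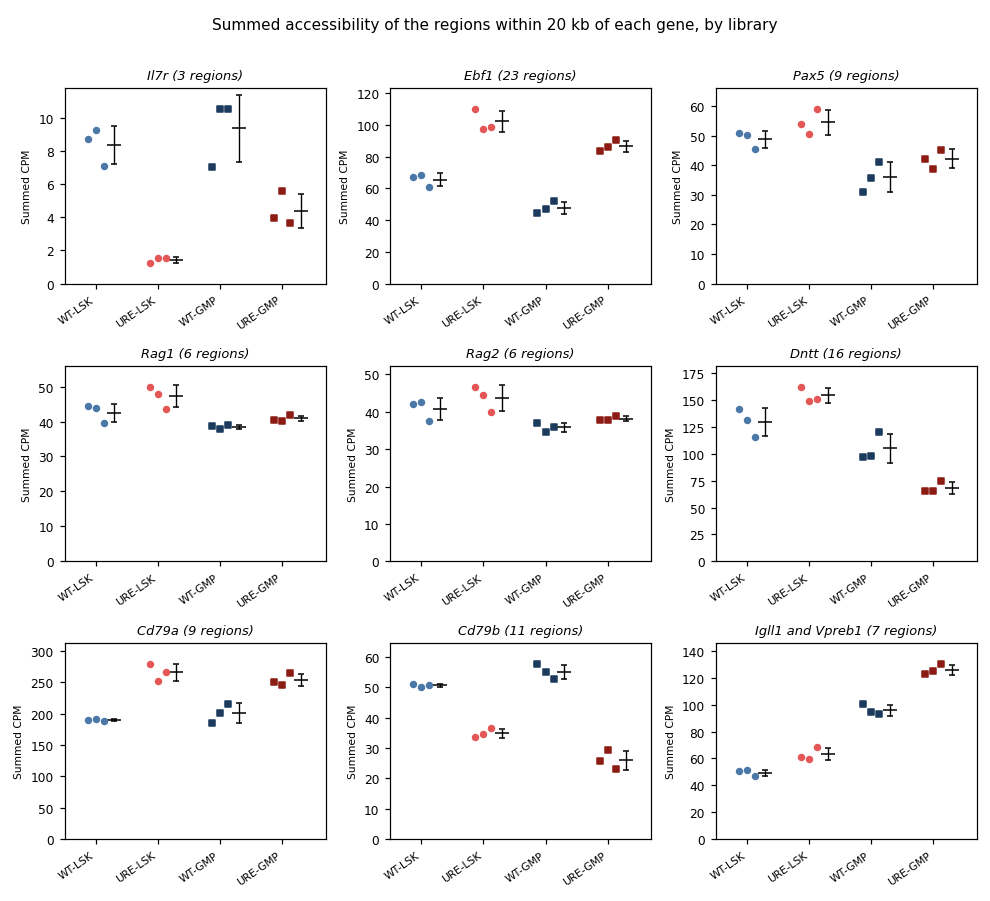
Summed CPM of the regions within 20 kb of each gene are plotted for every library of the 4 groups, with the mean and SD beside the points (3 libraries a group). Il7r is lower in every URE library than in every WT library of the same cell type, Ebf1 is higher, and Dntt is higher in URE-LSK and lower in URE-GMP.

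Il7r, the receptor chain through which IL-7 keeps early lymphoid cells alive, was the only one of the 10 genes with all its regions lower in URE-LSK. Its 3 regions summed to 8.71, 9.26 and 7.08 CPM in the WT-LSK libraries, against 1.24, 1.54 and 1.54 CPM in the URE-LSK libraries. In GMP they summed to 7.03, 10.5 and 10.5 CPM in WT and to 3.94, 5.57 and 3.68 CPM in URE. The genotypes did not overlap in either cell type. The log2 fold change was -2.53 ± 0.22 (standard error, SE) (LSK, adjusted p = 2.5e-07) and -1.09 ± 0.20 (GMP, adjusted p = 0.00021). The interaction, the GMP effect less the LSK effect, was 1.44 ± 0.30 (adjusted p = 0.0029), so the fall of this sum was smaller in GMP. That call depended on the window. With the gene body alone, or extended by 5 kb or 50 kb, 0 sums had a positive interaction called. Without URE-GMP replicate 3 the GMP value was -0.98, short of the 2-fold limit.

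The Il7r promoter region (chr15:9529681-9530012) held 5.85, 5.83 and 4.10 CPM for WT-LSK and 0.262, 0.698 and 0.192 CPM for URE-LSK. For GMP the values were 3.26, 6.29 and 5.67 CPM (WT) and 0.560, 1.11 and 0.557 CPM (URE), so the lowest WT library was above the highest URE library in both. The log2 fold changes were -3.81 ± 0.41 (LSK, adjusted p = 1.1e-06) and -2.76 ± 0.37 (GMP, adjusted p = 1.2e-05), with an interaction of 1.06 ± 0.56 that did not pass (adjusted p = 0.22). The region 3.9 kb upstream (chr15:9533576-9533803) was weaker in WT (chosen after its values had been seen), with 1.04 CPM (LSK) and 1.39 CPM (GMP). It was lower in URE, at -3.61 ± 0.59 and -3.66 ± 0.53.

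The remaining Il7r region, chosen after its values had been seen, lies beyond the 3' end of the gene, 37.5 kb from the start site (chr15:9492167-9492403). It held 1.86, 2.12 and 2.17 CPM across WT-LSK and 0.809, 0.754 and 1.35 CPM across URE-LSK. The GMP libraries held 2.59, 2.98 and 3.09 CPM (WT) and 3.27, 4.30 and 3.08 CPM (URE), where the genotypes overlapped. Fitted log2 fold changes were -1.07 ± 0.25, a call that was lost under other scalings, and 0.30 ± 0.23, and the interaction was 1.36 ± 0.34 (adjusted p = 0.012). With 3.55 CPM it made up most of the Il7r sum in URE-GMP.

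The central 300 bp of the Il7r promoter region are shown because this start site was lower in both cell types. Here and for the genes that follow, sequences are the plus strand of GRCm38 from NCBI RefSeq, and capitals mark matches on either strand to GAGGAAGT (PU.1), AGGAAGT (a core shared by ETS factors), AACCACA (RUNX), TTGCNNAA (C/EBP), CCCNNGGGA (EBF) and CAGCTG or CAGGTG (E box, bound by factors such as E2A). AGGAAGT is contained in the PU.1 motif and was added after the sequences had been seen. These motifs lay in 8.70%, 21.9%, 14.4%, 16.4%, 5.10% and 35.5% of all regions' central 300 bp. The Il7r window, chr15:9529697-9529996, holds a RUNX match and an ETS core.
Il7r promoter: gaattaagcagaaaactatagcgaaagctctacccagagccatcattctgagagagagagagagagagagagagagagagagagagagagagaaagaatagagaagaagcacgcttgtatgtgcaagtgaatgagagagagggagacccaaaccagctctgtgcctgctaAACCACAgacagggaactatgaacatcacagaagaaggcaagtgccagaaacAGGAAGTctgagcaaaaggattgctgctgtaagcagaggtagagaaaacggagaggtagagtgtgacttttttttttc

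Ebf1, the factor that specifies the B lineage, went the other way. Its 23 regions summed to 66.9, 68.5 and 60.6 CPM in the WT-LSK libraries, against 109.9, 97.5 and 98.7 CPM in the URE-LSK libraries. In GMP they summed to 44.6, 47.0 and 52.0 CPM in WT and to 83.2, 85.9 and 90.2 CPM in URE. Every URE library was above every WT library of its cell type. As log2 fold changes these were 0.65 ± 0.07 (LSK, adjusted p = 3.1e-06) and 0.85 ± 0.07 (GMP, adjusted p = 1.0e-07), both under the 2-fold limit. Under every scaling tried, more Ebf1 regions were called higher than lower, with 7 to 12 higher and 1 to 2 lower in LSK and 8 to 12 and 0 to 2 in GMP.

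At the Ebf1 start site no difference was called. The promoter region (chr11:44617074-44617364) held 5.17, 5.71 and 5.49 CPM for WT-LSK and 7.50, 7.26 and 5.32 CPM for URE-LSK. WT-GMP libraries had 4.48, 5.71 and 6.29 CPM and those of URE-GMP 6.46, 6.11 and 5.84 CPM. The genotypes overlapped in both cell types, and the log2 fold changes were 0.29 ± 0.18 (adjusted p = 0.17) and 0.15 ± 0.18 (adjusted p = 0.48). The 2 lower regions lay at +7.5 kb and +15.9 kb from the start site, and 7 of the 9 regions higher in LSK lay between +200.9 kb and +360.6 kb. The calls at +15.9 kb in both cell types and at +7.5 kb in GMP were lost under other scalings.

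The Ebf1 intron region at +7.5 kb (chr11:44624714-44624942) held 2.44, 2.24 and 1.75 CPM across WT-LSK and 0.0714, 0.0558 and 0.171 CPM across URE-LSK, the latter from 3, 2 and 8 counts. GMP gave 0.544, 0.546 and 0.945 CPM with the element and 0.108, 0.191 and 0.170 CPM without it. The region was thus highest in WT-LSK and lower in URE in both cell types without overlap. URE over WT, the log2 fold changes were -4.33 ± 0.43 (LSK, adjusted p = 4.8e-07) and -2.10 ± 0.42 (GMP, adjusted p = 0.00045). The interaction was 2.23 ± 0.64 (adjusted p = 0.025) and did not pass without WT-LSK replicate 1, URE-LSK replicate 1 or 2, or URE-GMP replicate 2, where it lay between 1.98 and 2.16. From LSK to GMP the region closed in WT (-1.63 ± 0.35) and was not called in URE (0.60 ± 0.54). URE-LSK already lay near the 0.0731 CPM that 3 counts are worth there. A further fall in URE could thus hardly be seen, which limits this contrast of steps and the interaction.

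The Ebf1 region at +140.9 kb (chr11:44758109-44758376) held 0.0837, 0.0420 and 0.0461 CPM in WT-GMP, which are 2, 2 and 2 counts, and 5.19, 6.07 and 4.51 CPM in URE-GMP. In LSK it held 0, 0.163 and 0.121 CPM in WT and 0.143, 0.363 and 0.320 CPM in URE. Only the URE-GMP libraries were above 1 CPM. The ratio of URE-GMP to WT-GMP was 102, with a 95% exact counting interval from 46.8 to 280 that covers counting error only. The fitted log2 fold change was 6.56 ± 0.51 in GMP (adjusted p = 7.8e-08), and the interaction was 4.98 ± 0.96 (adjusted p = 0.0025). The LSK value of 1.58 ± 0.60 (adjusted p = 0.033) rests on few counts: it was 0.93 without WT-LSK replicate 1, 1.95 without WT-LSK replicate 3, 1.36 without URE-LSK replicate 2, and 1.44 when URE-LSK replicate 3 was left out, and none of these passed.

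Both Ebf1 introns are shown because they had the smallest p of the gene in LSK and in GMP and moved in opposite directions. The +7.5 kb window, chr11:44624679-44624978, holds an E box. The +140.9 kb window, chr11:44758093-44758392, holds a C/EBP match.
Ebf1 +7.5 kb: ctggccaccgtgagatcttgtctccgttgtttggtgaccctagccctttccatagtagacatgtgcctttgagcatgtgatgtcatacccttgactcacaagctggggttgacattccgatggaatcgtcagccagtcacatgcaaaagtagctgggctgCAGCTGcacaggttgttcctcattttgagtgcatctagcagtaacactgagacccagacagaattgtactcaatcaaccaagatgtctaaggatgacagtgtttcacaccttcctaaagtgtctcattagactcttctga
Ebf1 +140.9 kb: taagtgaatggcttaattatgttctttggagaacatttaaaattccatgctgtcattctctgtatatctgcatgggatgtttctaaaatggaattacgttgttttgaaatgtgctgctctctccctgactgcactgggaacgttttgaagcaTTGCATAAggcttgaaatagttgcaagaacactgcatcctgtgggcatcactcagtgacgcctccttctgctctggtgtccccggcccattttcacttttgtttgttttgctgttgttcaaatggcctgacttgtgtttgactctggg

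More Ebf1 introns, chosen after their values had been seen, were higher in URE. At +360.6 kb (chr11:44977679-44978135) the region held 0.0787, 0.163 and 0.0402 CPM in the WT-LSK libraries, against 0.880, 1.03 and 1.84 CPM in the URE-LSK libraries. For GMP the values were 0.418, 0.483 and 0.184 CPM (WT) and 3.96, 4.67 and 4.70 CPM (URE), again without overlap. The log2 fold changes were 3.89 ± 0.50 and 3.62 ± 0.37. At +223.6 kb the rise was larger in LSK (3.83 ± 0.42) than in GMP (1.74 ± 0.40), with an interaction of -2.10 ± 0.59 (adjusted p = 0.023). That interaction did not pass without WT-LSK replicate 1 (-1.63) or replicate 2 (-2.08), without URE-LSK replicate 1 (-2.04) or without WT-GMP replicate 3 (-1.51). At +307.8 kb it was larger in GMP (3.28 ± 0.33) than in LSK (1.54 ± 0.30), with an interaction of 1.74 ± 0.45 (adjusted p = 0.015). The strongest region of the gene, at +264.2 kb (chr11:44881148-44881930), held 14.98, 14.4 and 9.81 CPM for WT-LSK and 30.5, 24.0 and 27.1 CPM for URE-LSK, and its call (1.06 ± 0.17) was lost under some scalings.

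**Figure D3:**
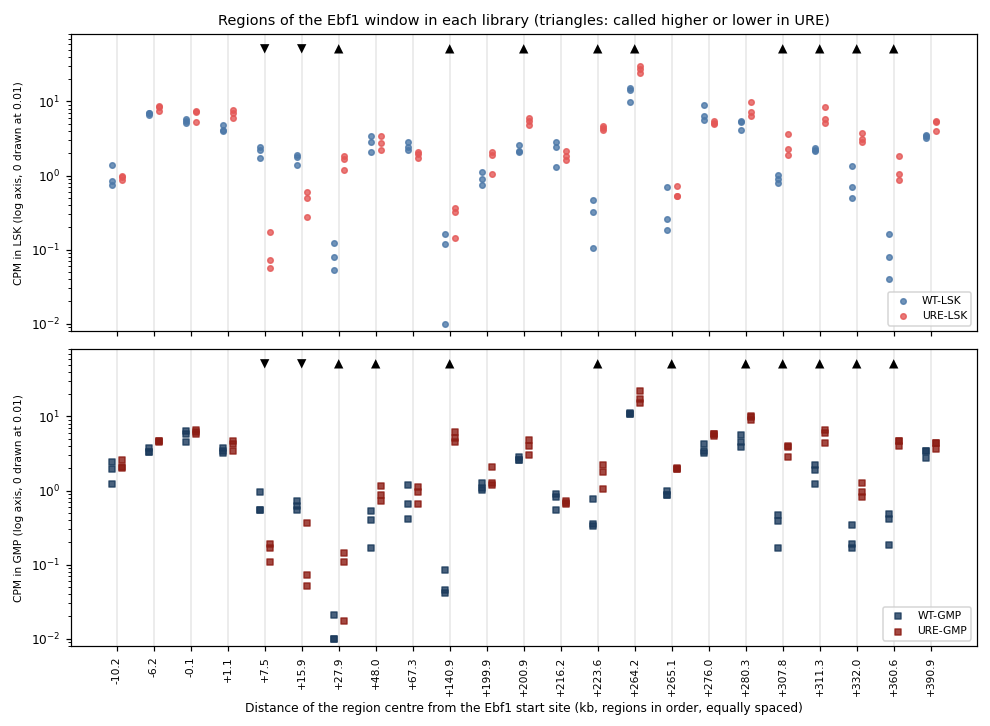
CPM of the 23 regions of the Ebf1 window are plotted for every library on a log axis, LSK on top and GMP below, in order of their distance from the start site. Triangles mark regions called higher (up) or lower (down) in URE. The regions at +7.5 and +15.9 kb are lower in both cell types, the promoter is not called, and the +140.9 kb region is high in the 3 URE-GMP libraries.

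Pax5, the factor that commits cells to the B lineage, showed no called difference as a whole. Its 9 regions summed to 48.7 ± 2.96 CPM in the WT-LSK libraries (SD, n = 3), to 54.5 ± 4.20 CPM for URE-LSK, and to 36.0 ± 5.07 CPM for WT-GMP and 42.1 ± 3.21 CPM for URE-GMP. Fitted log2 fold changes were 0.16 ± 0.10 (adjusted p = 0.15) and 0.22 ± 0.10 (adjusted p = 0.060). Within that sum 3 intron regions were lower in both cell types and a further one in GMP. No region lay within 500 bp of a start site of a coding Pax5 transcript.

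The Pax5 intron region at +39.2 kb (chr4:44671038-44671351) held 2.68, 4.20 and 1.57 CPM across WT-LSK and 0.143, 0.195 and 0.107 CPM across URE-LSK. The GMP libraries held 2.84, 4.47 and 3.48 CPM (WT) and 0.603, 0.989 and 0.194 CPM (URE). The WT libraries spread widely, and all lay above every URE library of their cell type. As log2 fold changes these were -4.22 ± 0.54 (adjusted p = 5.7e-06) and -2.56 ± 0.43 (adjusted p = 9.4e-05), and the interaction of 1.66 ± 0.71 did not pass (adjusted p = 0.12), but was 2.05 and passed without URE-GMP replicate 3.

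The Pax5 region at +127.5 kb (chr4:44582764-44582972) differed between the cell types. It held 0.656, 0.857 and 0.824 CPM in the WT-LSK libraries, against 0.404, 0.363 and 0.534 CPM in the URE-LSK libraries, with a log2 fold change of -0.82 ± 0.41 that did not pass (adjusted p = 0.0998) and changed sign with offsets against abundance. WT-GMP libraries had 0.544, 0.944 and 1.48 CPM and those of URE-GMP 0.129, 0.0694 and 0.0242 CPM. There it was lower, at -3.69 ± 0.50 (adjusted p = 1.4e-05), and the interaction was -2.87 ± 0.67 (adjusted p = 0.0082). The regions at +76.1 kb and +85.4 kb were lower in both cell types, at -2.49 and -1.50 in LSK and -1.23 and -1.59 in GMP, and these calls were lost under other scalings.

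The Pax5 +39.2 kb window, chr4:44671045-44671344, is shown as the region of this gene with the smallest p in LSK. It holds 2 E boxes: CACCTG, which is CAGGTG on the minus strand, and CAGCTG, which reads the same on both strands.
Pax5 +39.2 kb: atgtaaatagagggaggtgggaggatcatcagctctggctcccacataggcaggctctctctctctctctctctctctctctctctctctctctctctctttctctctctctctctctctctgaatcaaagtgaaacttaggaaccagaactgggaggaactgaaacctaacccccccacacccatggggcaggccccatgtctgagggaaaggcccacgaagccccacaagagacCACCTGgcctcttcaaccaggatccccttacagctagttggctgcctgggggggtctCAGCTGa

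Rag1 and Rag2 encode the recombinase that cuts immunoglobulin gene segments. The Rag1 window summed to 42.5 ± 2.61 CPM (WT-LSK), 47.2 ± 3.19 CPM (URE-LSK), 38.5 ± 0.504 CPM (WT-GMP) and 40.9 ± 0.831 CPM (URE-GMP). URE over WT, the log2 fold changes were 0.15 ± 0.07 and 0.09 ± 0.07 for Rag1 and 0.10 ± 0.08 and 0.09 ± 0.08 for Rag2, all under the 2-fold limit. Most of these counts came from a region at a start site of the neighbouring B230118H07Rik, between 26.4 and 38.5 CPM in the 12 libraries.

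The start sites of the recombinase genes differed. The Rag1 promoter region (chr2:101649441-101649769), which is also that of B230118H07Rik, held 2.91, 1.79 and 2.31 CPM for WT-LSK and 2.43, 2.32 and 2.18 CPM for URE-LSK, and its log2 fold change of -0.03 ± 0.28 changed sign with the scaling. The region 0.6 kb downstream of the Rag2 start site (chr2:101625171-101625504) held 2.70, 3.18 and 2.47 CPM across WT-LSK and 1.19, 0.977 and 0.961 CPM across URE-LSK, without overlap. It was lower in URE-LSK, at -1.41 ± 0.22 (adjusted p = 5.4e-05), which with GC content offsets was -0.94 and no longer called. GMP gave 3.64, 2.58 and 2.95 CPM with the element and 1.85, 1.89 and 1.60 CPM without it (-0.77 ± 0.21, under the limit). The region 9.9 kb upstream of Rag2, chosen after its values had been seen, held 1.31, 1.84 and 1.29 CPM in the WT-LSK libraries, against 0.0476, 0.195 and 0.0854 CPM in the URE-LSK libraries (-3.76 ± 0.50), and 0.167, 0.231 and 0.461 CPM in WT-GMP.

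Dntt, which encodes TdT, is the gene whose summed genotype effect differed in sign between LSK and GMP. Its 16 regions summed to 141, 132 and 116 CPM for WT-LSK and to 162, 149 and 151 CPM for URE-LSK. In GMP they summed to 96.6, 97.9 and 120.2 CPM in WT and to 64.9, 65.2 and 74.2 CPM in URE. Every URE library was above every WT library in LSK and below every WT library in GMP. The log2 fold changes were 0.25 ± 0.09 (adjusted p = 0.020) and -0.63 ± 0.09 (adjusted p = 1.8e-05), both under the 2-fold limit, and their difference was -0.88 ± 0.12 (adjusted p = 0.00015). The median over all gene sums was 0.17 in LSK and 0.15 in GMP. Dntt thus lay near the typical gene in LSK and below it in GMP. With the gene body extended by 50 kb in place of 20 kb the LSK value was -0.03.

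The Dntt promoter region (chr19:41029218-41029495) held 2.76, 2.49 and 1.41 CPM across WT-LSK and 1.95, 1.34 and 2.22 CPM across URE-LSK. For GMP the values were 0.126, 0.210 and 0.115 CPM (WT) and 0.108, 0.121 and 0.267 CPM (URE). The genotypes overlapped in both cell types (-0.25 ± 0.33 and 0.05 ± 0.54), and the sign of these values changed with the scaling. From LSK to GMP it closed in both genotypes, at -3.80 ± 0.43 in WT and -3.50 ± 0.41 in URE.

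Inside Dntt the introns split. At +8.9 kb (chr19:41038141-41038495) the region held 3.46, 2.57 and 2.45 CPM in the WT-LSK libraries, against 0.476, 0.140 and 0.449 CPM in the URE-LSK libraries, and 6.40, 6.19 and 7.63 CPM for WT-GMP and 1.59, 1.80 and 1.48 CPM for URE-GMP. It was lower in both cell types, at -2.95 ± 0.31 (adjusted p = 7.6e-07) and -2.05 ± 0.26 (adjusted p = 6.1e-06). At +6.8 kb (chr19:41035946-41036464) the region held 5.64, 5.75 and 4.32 CPM for WT-LSK and 3.05, 3.57 and 2.48 CPM for URE-LSK (-0.79 ± 0.22, under the limit). The GMP libraries held 6.82, 6.02 and 8.62 CPM (WT) and 2.002, 1.77 and 1.24 CPM (URE) (-2.09 ± 0.23, adjusted p = 1.6e-06). The effect of the +6.8 kb region was larger in GMP, with an interaction of -1.31 ± 0.32 (adjusted p = 0.010).

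The strong Dntt region at +1.9 kb (chr19:41030940-41031694), chosen after its values had been seen, differed in sign between LSK and GMP like the sum. It held 31.2, 27.2 and 27.4 CPM across WT-LSK and 47.1, 42.5 and 39.8 CPM across URE-LSK. WT-GMP libraries had 15.2, 14.4 and 20.6 CPM and those of URE-GMP 8.85, 8.74 and 10.8 CPM. Fitted log2 fold changes were 0.59 ± 0.13 (adjusted p = 0.0011) and -0.83 ± 0.14 (adjusted p = 7.7e-05), each under the limit, with an interaction of -1.42 ± 0.19 (adjusted p = 0.00017). The neighbouring region at +2.7 kb had an interaction of -1.81 ± 0.45 (adjusted p = 0.012).

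**Figure D4:**
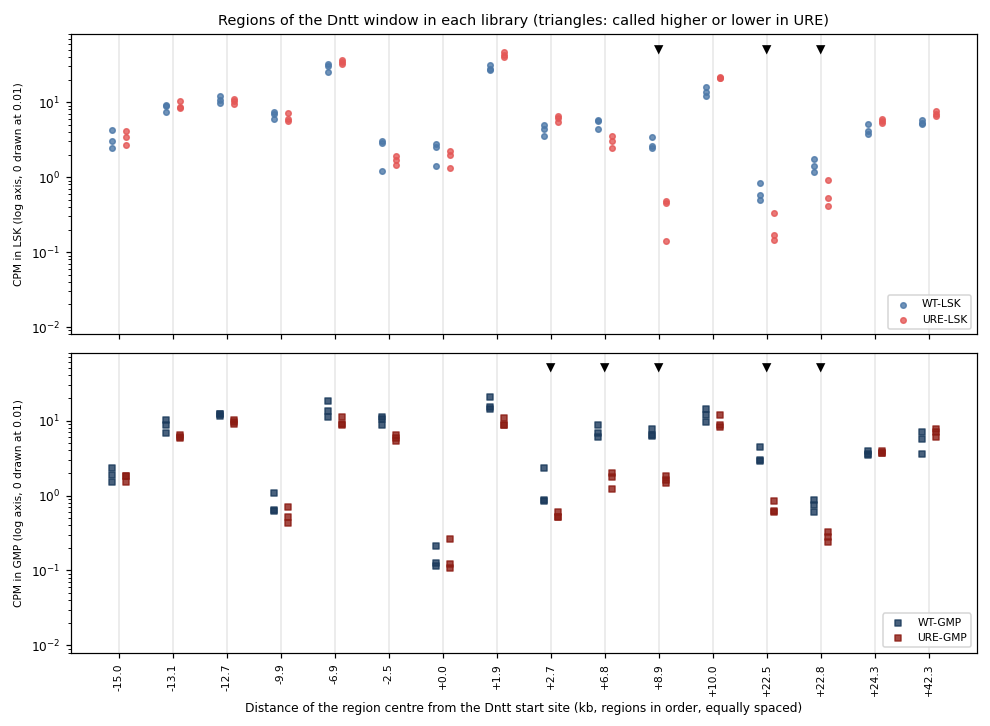
CPM of the 16 regions of the Dntt window are plotted for every library on a log axis, LSK on top and GMP below, in order of their distance from the start site. Triangles mark regions called lower in URE, and no region is called higher. The regions at +8.9, +22.5 and +22.8 kb are lower in both cell types, and those at +2.7 and +6.8 kb are called in GMP. The calls at +22.8 kb in both cell types, at +22.5 kb in LSK and at +2.7 kb in GMP were lost under other scalings.

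Cd79b, one of the signalling chains of the B cell receptor, was lower in URE in both cell types. Its 11 regions summed to 51.1, 50.01 and 50.8 CPM in the WT-LSK libraries, against 33.5, 34.8 and 36.5 CPM in the URE-LSK libraries. In GMP they summed to 57.6, 55.0 and 52.8 CPM in WT and to 25.8, 29.2 and 23.0 CPM in URE, and the genotypes did not overlap. As log2 fold changes these were -0.54 ± 0.08 (adjusted p = 6.1e-05), under the 2-fold limit, and -1.08 ± 0.08 (adjusted p = 3.0e-08), with an interaction of -0.54 ± 0.12 (adjusted p = 0.0037). Without URE-GMP replicate 3 the GMP value was -0.9998, just short of the limit. With the gene body extended by 5 kb in place of 20 kb, a narrower window, the LSK value was -1.32 and called. With the gene body alone the GMP value was -0.78 and no longer called.

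The Cd79b promoter region (chr11:106314452-106314728) held 3.41, 3.51 and 3.88 CPM for WT-LSK and 1.97, 2.60 and 2.07 CPM for URE-LSK. GMP gave 4.85, 4.15 and 3.69 CPM with the element and 1.49, 2.36 and 1.36 CPM without it. The log2 fold change was -0.71 ± 0.23 in LSK, under the limit, and -1.27 ± 0.23 in GMP (adjusted p = 0.00018).

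At some regions upstream of Cd79b the falls were larger than at its promoter, while the regions at -11.2, -15.1 and -19.5 kb were not called. The calls at -18.0 kb were lost under other scalings in both cell types. The region at +8.6 kb, beyond the 3' end, was chosen after its values had been seen. It was lower too, at -3.60 ± 0.51 in LSK and -1.71 ± 0.38 in GMP. At -14.5 kb, in an intron of the neighbouring sodium channel gene Scn4a (chr11:106329190-106329432), the region held 5.41, 5.30 and 5.37 CPM across WT-LSK and 0.262, 0.419 and 0.214 CPM across URE-LSK. For GMP the values were 5.77, 4.89 and 4.54 CPM (WT) and 0.301, 0.416 and 0.242 CPM (URE). The WT mean was 18.0 times the URE mean in LSK and 15.8 times in GMP, with log2 fold changes of -4.19 ± 0.27 (adjusted p = 8.6e-09) and -3.94 ± 0.26 (adjusted p = 2.1e-08). Its nearest protein-coding start site is that of Cd79b, and a link to Scn4a cannot be told apart by position. The regions at -2.7 kb (-3.36 ± 0.31 in LSK and -3.07 ± 0.29 in GMP) and -4.2 kb (-2.28 ± 0.25 and -2.42 ± 0.23), chosen after their values had been seen, were lower in both cell types under every scaling.

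The Cd79b -14.5 kb window, chr11:106329162-106329461, is shown because the region had the smallest p of this gene in both cell types. None of the motifs listed is among its letters.
Cd79b -14.5 kb: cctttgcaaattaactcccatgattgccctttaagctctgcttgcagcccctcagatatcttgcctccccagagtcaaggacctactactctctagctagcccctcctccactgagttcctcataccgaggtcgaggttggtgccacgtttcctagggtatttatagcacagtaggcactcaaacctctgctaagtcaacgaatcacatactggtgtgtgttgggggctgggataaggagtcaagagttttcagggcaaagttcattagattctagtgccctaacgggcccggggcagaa

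**Figure D5:**
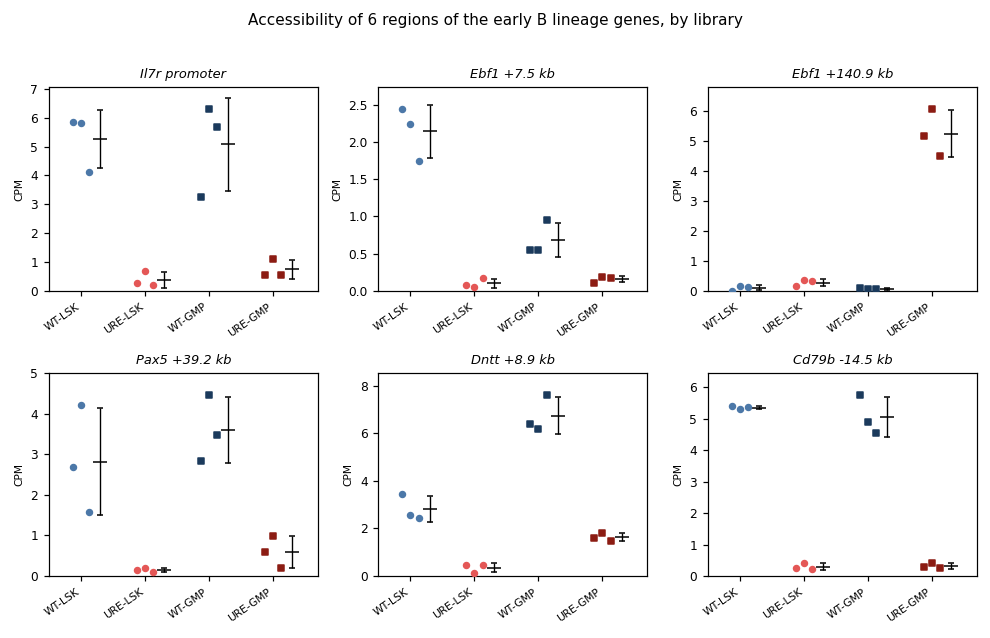
CPM of regions with the smallest p of their gene are plotted for every library of the 4 groups, with the mean and SD beside the points (3 libraries a group). The regions of Il7r, Pax5 (+39.2 kb), Dntt (+8.9 kb), Cd79b and Ebf1 (+7.5 kb) are lower in every URE library than in every WT library of the same cell type, and the Ebf1 +140.9 kb region is high in URE-GMP.

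Cd79a, the partner chain of Cd79b, lies between Rps19 and Arhgef1, and 0 of the 9 regions in its window had the Cd79a start site as the nearest. The window summed to 190.2 ± 1.37 CPM (WT-LSK), 266 ± 13.4 CPM (URE-LSK), 201 ± 15.6 CPM (WT-GMP) and 254 ± 9.64 CPM (URE-GMP) (0.48 ± 0.06 and 0.34 ± 0.06), and the Rps19 promoter alone held between 74.3 and 126 CPM. The region inside Cd79a, at its 3' UTR (chr7:24901964-24902231, chosen after its values had been seen), held 2.05, 1.59 and 1.29 CPM in the WT-LSK libraries, against 0.690, 0.530 and 0.235 CPM in the URE-LSK libraries. The GMP libraries held 4.06, 3.84 and 2.79 CPM (WT) and 0.904, 0.694 and 1.07 CPM (URE). It was lower without overlap, at -1.76 ± 0.35 (adjusted p = 0.00044) and -2.01 ± 0.32 (adjusted p = 5.3e-05), against the direction of the sum.

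Igll1 and Vpreb1, which encode the surrogate light chain, had 0 of 7 regions lower in URE in either cell type by edgeR and by DESeq2, and 0 at an unadjusted p under 0.05. The sums were 50.4, 51.2 and 47.0 CPM for WT-LSK and 61.4, 60.0 and 68.8 CPM for URE-LSK. In GMP they were 101, 94.3 and 93.2 CPM in WT and 123, 125 and 130.0 CPM in URE, so GMP was above LSK in both genotypes. The genotype effects were 0.36 ± 0.06 and 0.39 ± 0.06, under the 2-fold limit. The promoter of Top3b, 6.9 kb upstream of Igll1, held between 24.7 and 55.3 CPM of these sums.

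Beyond the 3' end of Igll1, 5.5 kb from its start site (chr16:16858137-16858768), the region held 0.472, 0.530 and 0.221 CPM across WT-LSK and 0.690, 0.391 and 1.13 CPM across URE-LSK, which overlapped. WT-GMP libraries had 5.98, 5.20 and 3.37 CPM and those of URE-GMP 12.3, 12.1 and 12.2 CPM. It was higher in URE-GMP by 1.34 ± 0.28 (adjusted p = 0.00062) and opened from LSK to GMP by 3.63 ± 0.36 in WT and 4.01 ± 0.33 in URE. The LSK difference of 0.96 ± 0.40 did not pass (adjusted p = 0.051), but passed with RLE size factors (1.01), with GC content offsets (1.42), with offsets against abundance (1.15) and without URE-LSK replicate 2 (1.24). The region at +6.8 kb, chosen after its values had been seen, opened as well, from 0.290 to 6.82 CPM in WT and from 0.575 to 11.2 CPM in URE.

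The step from LSK to GMP was compared in each genotype. In WT, 23 of the 85 regions (27.1%) were lower and 12 (14.1%) higher in GMP than in LSK, beside 16.8% and 21.0% of all regions. In URE, 26 (30.6%) were lower and 15 (17.6%) higher, beside 21.6% and 27.6%. In WT 8 of 23 regions of Ebf1 and 5 of 9 of Pax5 were lower in GMP, and 4 of 7 of Igll1 and Vpreb1 were higher. Of Il7r 0 of 3 were called in either direction, by edgeR, by DESeq2 and at an unadjusted p under 0.05.

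For the gene sums of that step, 0 of the 10 passed in WT by edgeR, where 4.29% of all genes were lower and 2.30% higher in GMP. At an unadjusted p under 0.05, 2 were higher and 4 lower, and DESeq2 called 2 higher. The 2 higher sums at that p were Igll1 and Vpreb1, which hold the same regions and are not separate results. In URE, Il7r was higher in GMP (1.62 ± 0.22, adjusted p = 9.1e-06) and Dntt lower (-1.18 ± 0.09, adjusted p = 1.0e-08), beside 4.38% higher and 7.28% lower of all genes. With the gene body alone and with a 50 kb extension, 0 sums were called higher in the URE step, so the Il7r call was lost. The order of the mean Il7r sums was URE-LSK, URE-GMP, WT-LSK and WT-GMP, and the last pair did not differ beyond their spread (0.18 ± 0.20). For Dntt the order was URE-GMP, WT-GMP, WT-LSK and URE-LSK, and for Ebf1 it was WT-GMP, WT-LSK, URE-GMP and URE-LSK.

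Of the 12 regions within 500 bp of a start site of any gene, 2 were lower and 0 higher in URE-LSK, and 2 were lower and 0 higher in URE-GMP. These 2 are 16.7% of the 12, where 7.68% of all regions so placed were lower in LSK and 8.25% in GMP, and 3.83% and 4.79% were higher. Among the 73 others 18 (24.7%) were lower and 10 (13.7%) higher in LSK, beside 27.0% and 15.4% of all other regions, and 20 (27.4%) and 13 (17.8%) in GMP, beside 27.0% and 17.7%. At an unadjusted p under 0.05 in edgeR, 5 of the 12 were higher in LSK and 5 in GMP, and the share of all regions so placed at that p is not given here. The difference between these kinds of region was not tested. Of the 64 regions whose nearest protein-coding start site is that of one of the 10 genes, 15 (23.4%) were lower and 9 (14.1%) higher in LSK and 17 (26.6%) and 11 (17.2%) in GMP, near the shares of all regions (23.9% and 13.6%, and 24.1% and 15.6%).

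The full PU.1 motif GAGGAAGT lay in the central 300 bp of 6 of the 85 regions (7.06%), beside 8.70% of all regions. It lay in 2 of the 20 regions lower in URE-LSK (10%) and in 0 of the 10 higher ones, beside 21.2% and 1.97% over all regions. The ETS core AGGAAGT lay in 6 of those 20 (30.0%) and 1 of those 10 (10%), beside 38.0% and 14.0% over all regions. With so few regions these shares carry wide counting error, and a match does not show binding.

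Another 25 genes of lymphoid and B cell development gave 343 further regions by the same window. In URE-LSK 96 (28.0%) were lower and 31 (9.04%) higher, and in URE-GMP 106 (30.9%) were lower and 42 (12.2%) higher, with median log2 fold changes of 0.08 and -0.20. Over all regions 23.9% were lower and 13.6% higher in LSK, and 24.1% and 15.6% in GMP, with medians of 0.14 and 0.06. All 4 regions of Irf4, a partner of PU.1 in B cells, were lower in LSK and 3 of them in GMP. The Irf4 sum was 42.0 ± 3.98 CPM in WT-LSK, fell to 16.9 ± 3.05 CPM without the element (-1.31 ± 0.16), and in GMP fell from 37.9 ± 6.75 to 12.7 ± 2.51 CPM (-1.58 ± 0.16). The sum of Cd24a, a surface protein of early B cells, was 134 ± 0.284 CPM in WT-LSK, fell to 43.3 ± 6.96 CPM without the element (-1.63 ± 0.15), and in GMP fell from 134 ± 22.2 to 62.0 ± 14.7 CPM (-1.11 ± 0.15). Lower regions were also found at the cytokine receptor gene Flt3 (8 of 20 in LSK, 7 in GMP), the adaptor gene Blnk (5 of 8 in both) and the factor gene Mef2c (7 of 23 in LSK, 15 in GMP). The sum of Tcf3, which encodes the E box factor E2A, differed by 0.27 ± 0.05 in LSK and 0.27 ± 0.05 in GMP.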

How the data were processed

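The authors aligned ATAC-seq reads to GRCm38 with Bowtie2, removed duplicates and non-primary chromosomes, called peaks per group with Genrich and merged them, per the study's methods; the labels' processing notes also name cutadapt, bedtools and featureCounts, with versions not given in the sources used here. The deposited values are raw counts of 121336 merged regions in 12 libraries, and region starts were taken as counted from 0. Whether read ends or fragments were counted is not given in the sources used here. Mice were 3 per genotype and cell type, so n = 3 is the number of animals.

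Counts were fitted with edgeR 4.0.16 (R 4.3.3, limma 3.58.1): TMM factors, filterByExpr (which removed 0 regions), 1 mean per group over the 12 libraries and the quasi-likelihood test, with Benjamini-Hochberg adjustment over all regions, or over all genes for window sums. Called means an adjusted p under 0.05 and an absolute log2 fold change over 1. SE is the log2 fold change divided by the square root of F. The study's own tool, DESeq2 (1.42.0), was an alternative, beside other scalings, filters, call rules, windows and pairings and each library left out. Across the libraries 3 counts are worth between 0.0520 and 0.126 CPM. The step was tested on simulated data.

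Named regions were the promoter (within 500 bp of a start site, most counts) and, per gene, the called region with the smallest p in LSK and in GMP whose genotypes did not overlap and whose nearest protein-coding start site is the gene's; others are said to have been chosen after their values were seen. The 10 genes and the other lists were chosen with earlier results of these data known. Same-numbered libraries deviated together between LSK and GMP of WT (r of 0.223, 0.257 and 0.264), where differently numbered ones lay between -0.176 and -0.0436. In URE the same-numbered r were 0.112, 0.319 and 0.172, against -0.259 to 0.0980. Between WT-GMP and URE-GMP they were 0.117, 0.236 and 0.422, against -0.346 to 0.180. Between WT-LSK and URE-LSK they were 0.150, 0.0627 and -0.109, against -0.204 to 0.138. The pairing comes from the replicate numbers in the labels.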

Additional observations from a re-analysis of the deposited data

Results flagged for a closer look

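The genotype effect differed between GMP and LSK in 12 of the 85 regions (an adjusted p under 0.05 and a difference of more than 2-fold) and in 3 window sums (an adjusted p under 0.05, with no fold limit), each by the interaction term of the edgeR fit, which is the effect in GMP minus that in LSK on the log2 scale. For Ebf1 it was 2.23 at +7.5 kb, 4.98 at +140.9 kb, -2.10 at +223.6 kb, 1.06 at +276.0 kb and 1.74 at +307.8 kb. For Dntt it was -1.42 at +1.9 kb, -1.81 at +2.7 kb and -1.31 at +6.8 kb. The other regions were Il7r at +37.5 kb (1.36), Pax5 at +127.5 kb (-2.87), Rag2 at -9.9 kb (2.41) and the region of Igll1 and Vpreb1 at +7.4 kb from the Igll1 start site (1.40). Among window sums it was 1.44 for Il7r, -0.88 for Dntt and -0.54 for Cd79b, of which the Il7r value alone was over the 2-fold limit. The Il7r call was not made with the gene body alone, nor with a 5 kb or 50 kb extension.

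Of the 12 regions, 5 lost the call when 1 library was left out. The Ebf1 value at +7.5 kb did not pass without WT-LSK replicate 1 (2.16), without URE-LSK replicate 1 (2.03) or replicate 2 (1.98), or without URE-GMP replicate 2 (2.04). The value at +223.6 kb did not pass without WT-LSK replicate 1 (-1.63) or replicate 2 (-2.08), without URE-LSK replicate 1 (-2.04) or without WT-GMP replicate 3 (-1.51), and that at +276.0 kb fell under the 2-fold limit without WT-LSK replicate 1 (0.89). The Rag2 value passed only without URE-LSK replicate 2, WT-GMP replicate 3 or URE-GMP replicate 3 among the 12 libraries left out in turn. The Igll1 and Vpreb1 value passed only without WT-LSK replicate 1 or replicate 3, URE-LSK replicate 1 or WT-GMP replicate 1. The groups have 3 libraries each, so no single library was tested as an outlier.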

How the results depend on the processing

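All alternatives were planned except the ETS core motif, which was chosen after seeing the data. Of 612 recomputed counts 544 stayed within 1.5 times; of 1072 values of single regions 1019 and of 432 window sums 418 kept direction and call. Region counts that moved are given as higher/lower. With a mean CPM of at least 2 they were 3/8 in LSK, 2/9 in GMP, 6 lower in the WT step, 9/9 in the URE step and 3/3 in the interaction. With glmTreat they were 7/14 in GMP, 6/14 in the WT step, 14 lower in the URE step and 1/0 in the interaction. GC content offsets, with or without the block, gave 16 higher in LSK, and offsets against abundance 13 lower. The gene body alone gave 11 lower in LSK, 14 lower in GMP, 5 and 6 higher in the steps and 4 higher in the interaction. A 50 kb window gave 34 lower in LSK, 36 lower in GMP and 20 and 23 higher in the steps. Without a fold threshold 25 were higher in LSK and 27 in GMP, and at an adjusted p under 0.01 the interaction gave 1/2. The other lymphoid genes had 72 higher regions in LSK with GC content offsets and 60 with offsets against abundance. Leaving out 1 library gave 8 to 12 higher and 19 to 20 lower in LSK, 10 to 13 and 19 to 23 in GMP, 8 to 13 and 22 to 27 in the WT step, 15 to 16 and 22 to 27 in the URE step, and 4 to 8 and 4 to 7 in the interaction (4 higher without WT-LSK replicate 1 or URE-GMP replicate 2), and 26 to 37 and 90 to 99 in LSK and 40 to 47 and 97 to 112 in GMP for the other lymphoid genes. Of the window sums, 0 to 2 were then lower in GMP (0 without URE-GMP replicate 3) and 1 to 3 higher in the URE step (3 without URE-LSK replicate 3 or URE-GMP replicate 1). Without a fold threshold sums gave 5/2 in LSK, 4 higher in GMP, 2/3 in the WT step, 3/6 in the URE step and 2 lower in the interaction. In all counts of sums, Igll1 and Vpreb1 are counted separately although they hold the same regions. DESeq2 and RLE size factors each gave 2 higher in the WT step and 3 in the URE step. The gene body alone and a 5 kb extension each gave 2 lower in LSK, 1/1 in the WT step, 2 lower in the URE step and 0/1 in the interaction. In the URE step 0 were higher with the gene body alone and with 50 kb, which also gave 0 higher in the interaction. With nearest start sites only, 1 was higher in the WT step and 2 in the URE step. Values that changed sign were these. Ebf1 promoter: with 1 library left out, -0.00592 to 0.266 in GMP and -0.284 to 0.0348 for the interaction. Pax5 +127.5 kb in LSK: 0.66 with offsets against abundance. Rag1 promoter in LSK: 0.0171 with DESeq2, 0.0168 with RLE, 0.44 with offsets against abundance, 0.35 with GC content offsets (0.37 with the block) and -0.238 to 0.0928 with 1 library left out. Dntt promoter in LSK: 1.26 with offsets against abundance and 0.13 with GC content offsets (0.13 with the block). Dntt promoter in GMP: -0.0751 by library size, -0.0984 with TMM on promoter regions and -0.421 to 0.413 with 1 library left out, with -0.168 to 0.726 for its interaction. Cd79b -14.5 kb: -0.00763 to 0.543 for the interaction with 1 library left out. Sums in LSK: Rag1 -0.0357 with the gene body and -0.0359 with 5 kb, Rag2 -0.0180 by library size and -0.46 with nearest start sites only, Dntt -0.0311 with 50 kb and Cd79a -1.77 with the gene body. Sums in GMP: Rag1 -0.0335 and Rag2 -0.0287 by library size, Rag2 -0.75 with nearest start sites only and Cd79a -2.01 with the gene body. The causes of these changes were not tested. With the replicate number as a block the counts were 10/20 in LSK and 13/22 in GMP, and the block moved no count of calls by over 1.5 times. At the lowest counts, depth limits what can be seen: 3 counts were 0.0871 CPM (WT-LSK), 0.0731 CPM (URE-LSK), 0.0859 CPM (WT-GMP) and 0.0631 CPM (URE-GMP) on average.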
